A study of Mus musculus with 12 samples.

Results

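Twist1, Twist2, Hand1, Hand2, Id1, Id2, Id3 and Id4 encode Twist and Hand transcription factors of the basic helix-loop-helix (bHLH) class and the Id proteins that inhibit such factors. They were taken by gene symbol from the deposited expression table and make up 8 of its 36186 rows. Values are NRPKM, that is reads scaled to transcript length and library size (RPKM) with a further normalization between libraries by the authors. With the expression filter of the study, 5 NRPKM or more in 3 or more libraries, 7 of the 8 genes and 10936 genes in all were tested, and Hand1 was not. The libraries are RNA-Seq of mouse embryos at E15.5 with a mixed 129/CD-1 strain background, from the forelimb zeugopod, the segment of the radius and ulna. WT resting, WT proliferative and WT hypertrophic chondrocytes were captured by laser microdissection, with 3 libraries each, and a further 3 libraries came from aadd mutants, which carry frameshift mutations in the first exons of Hoxa9, Hoxa10, Hoxa11, Hoxd9, Hoxd10 and Hoxd11 on both chromosomes. The labels give the hypertrophic samples as hyperproliferative and list aadd under the resting compartment. The mutant element is so small that all of its chondrocytes were captured together, and each captured sample held some perichondrium.

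The bHLH proteins bind DNA as dimers, at a short motif named the E-box. Twist and Hand proteins pair with each other or with the widely expressed E proteins Tcf3, Tcf4 and Tcf12. Id proteins have the dimerization domain but no DNA-binding region, so that an E protein held by an Id protein cannot bind DNA. The Id genes are known as early targets of BMP-SMAD signaling. Twist1 and Twist2 hold back Runx2 and the differentiation of bone-forming cells, and Hand2, in mutual antagonism with Gli3, sets up the posterior limb bud and Shh expression.

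Promoter sequence is shown for the Twist genes and Hand2, which passed the unadjusted P and fold criteria given below between aadd and WT resting, and for Id3 and Id4, the Id genes whose libraries did not overlap between WT hypertrophic and WT resting. Each window is the 250 bases before the RefSeq start of the gene, in build GRCm38.p6, written 5′ to 3′ on the plus strand, which is the strand of these 5 genes. Capitals mark E-boxes (CANNTG) and the element GGCGCC of BMP-SMAD response, both searched on both strands. The windows are chr12:33957421-33957670 for Twist1, chr1:91801211-91801460 for Twist2, chr8:57320733-57320982 for Hand2, chr4:136143572-136143821 for Id3 and chr13:48260866-48261115 for Id4.
Twist1: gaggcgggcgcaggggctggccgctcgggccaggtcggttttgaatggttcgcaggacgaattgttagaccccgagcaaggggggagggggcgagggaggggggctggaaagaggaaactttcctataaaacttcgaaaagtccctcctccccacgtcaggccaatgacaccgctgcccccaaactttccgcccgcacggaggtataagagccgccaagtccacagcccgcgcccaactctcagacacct
Twist2: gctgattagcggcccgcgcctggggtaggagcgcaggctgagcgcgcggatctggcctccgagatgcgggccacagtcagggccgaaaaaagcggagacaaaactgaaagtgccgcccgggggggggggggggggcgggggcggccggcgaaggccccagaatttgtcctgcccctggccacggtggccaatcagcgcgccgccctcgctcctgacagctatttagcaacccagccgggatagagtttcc
Hand2: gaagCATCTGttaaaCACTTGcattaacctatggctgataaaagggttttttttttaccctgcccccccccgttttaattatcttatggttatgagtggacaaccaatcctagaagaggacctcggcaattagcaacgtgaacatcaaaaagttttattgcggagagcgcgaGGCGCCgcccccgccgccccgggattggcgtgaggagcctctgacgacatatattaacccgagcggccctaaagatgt
Id3: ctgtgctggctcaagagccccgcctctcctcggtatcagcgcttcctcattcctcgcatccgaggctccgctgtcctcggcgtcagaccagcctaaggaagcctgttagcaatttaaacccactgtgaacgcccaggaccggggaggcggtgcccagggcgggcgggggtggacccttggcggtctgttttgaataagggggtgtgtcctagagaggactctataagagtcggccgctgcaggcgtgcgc
Id4: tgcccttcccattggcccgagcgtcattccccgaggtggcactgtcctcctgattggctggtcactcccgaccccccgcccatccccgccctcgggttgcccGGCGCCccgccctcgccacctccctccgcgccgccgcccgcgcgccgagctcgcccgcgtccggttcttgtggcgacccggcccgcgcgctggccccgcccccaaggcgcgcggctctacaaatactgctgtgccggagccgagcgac
The window of Hand2 held 2 E-boxes, CATCTG and CACTTG, and 1 GGCGCC, and none of these overlapped another. No E-box was present in the windows of Twist1, Twist2, Id3 and Id4, and Id4 held 1 GGCGCC. Among the 6 members matched in the RefSeq table, which also has Id2, 2 held an E-box and 3 held GGCGCC. Of 32851 promoters of the same length, 66.2% held an E-box and 9.59% held GGCGCC. The windows of Hand2, Twist1, Id3, Twist2 and Id4 had a GC content of 49.2%, 62.4%, 62.8%, 68.8% and 75.6%, against a median of 52.4% over all promoters. A match describes these letters only and is not a measured binding site.

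The gene rows carry mm10 coordinates, the same assembly as GRCm38. Twist1 (gene ID 22160) lies at chr12:33957671-33959831 on the plus strand with 2 exons, and Twist2 (13345) at chr1:91801477-91848027 on the plus strand with 2 exons. Hand1 (15110) lies at chr11:57828713-57832147 on the minus strand and Hand2 (15111) at chr8:57320983-57324517 on the plus strand, each with 2 exons. Id1 (15901) is at chr2:152736274-152737410, plus strand, with 2 exons, and Id2 (15902) at chr12:25093799-25096092, minus strand, with 3 exons. Id3 (15903) is at chr4:136143822-136145392 and Id4 (15904) at chr13:48261427-48264036, both on the plus strand with 3 exons. Twist2, Hand2 and Id4 overlap transcripts of the other strand (Gm29100, Hand2os1 and A330033J07Rik). The use of strand in counting is not stated, so reads of these partners cannot be told apart from those of the 3 genes.

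The depth, read from the most frequent value of single-exon receptor and keratin-associated genes, came to 1890000 to 3240000 reads a library, and 1 read on 1 kilobase was worth 0.309 to 0.530 NRPKM. The 10 hypertrophic chondrocyte markers summed to 1812 to 3929 NRPKM in WT hypertrophic, 607 to 908 in WT proliferative, 55.5 to 72.4 in WT resting and 42.6 to 60.4 in aadd. The 10 cell cycle genes did not mark WT proliferative, with sums of 315 to 399 NRPKM there and 351 to 470 in WT resting. WT hypertrophic replicate 1 stood apart from replicates 2 and 3, with a root mean square log2 difference of 1.11 and 1.04 from them, while those 2 differed by 0.613 and pairs within the other groups by 0.588 to 0.861. Its 10 cartilage markers summed to 2618 NRPKM, against 694 and 1023 in replicates 2 and 3, and 2253 to 4697 in the other 9 libraries. The 9 macrophage and osteoclast markers present summed to 59.0, 1441 and 1087 NRPKM in WT hypertrophic replicates 1, 2 and 3 and to 18.9 to 45.3 elsewhere, and the 10 endothelial markers to 21.5, 297 and 205 and to 5.26 to 38.0 elsewhere. RNA of the mutated Hox genes does not check the genotype, since the frameshift leaves the transcripts in place: Hoxd9, Hoxd10 and Hoxd11 were higher in each aadd library than in each WT library, Hoxa11 was lower than in each WT resting library, and Hoxa9 and Hoxa10 overlapped WT resting. By Xist and the Y-linked genes, the male libraries were aadd replicates 1 and 2 and replicate 2 in every WT group. The study describes 3 independent sets of compartments. Whether WT libraries with the same replicate number share an embryo is not stated, and their sexes matched in every WT group. The reported fits treat the libraries as unpaired, and a fit with the replicate number as a block is an alternative. P-values measure the spread between these 3 libraries a group.

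**Figure D1:**
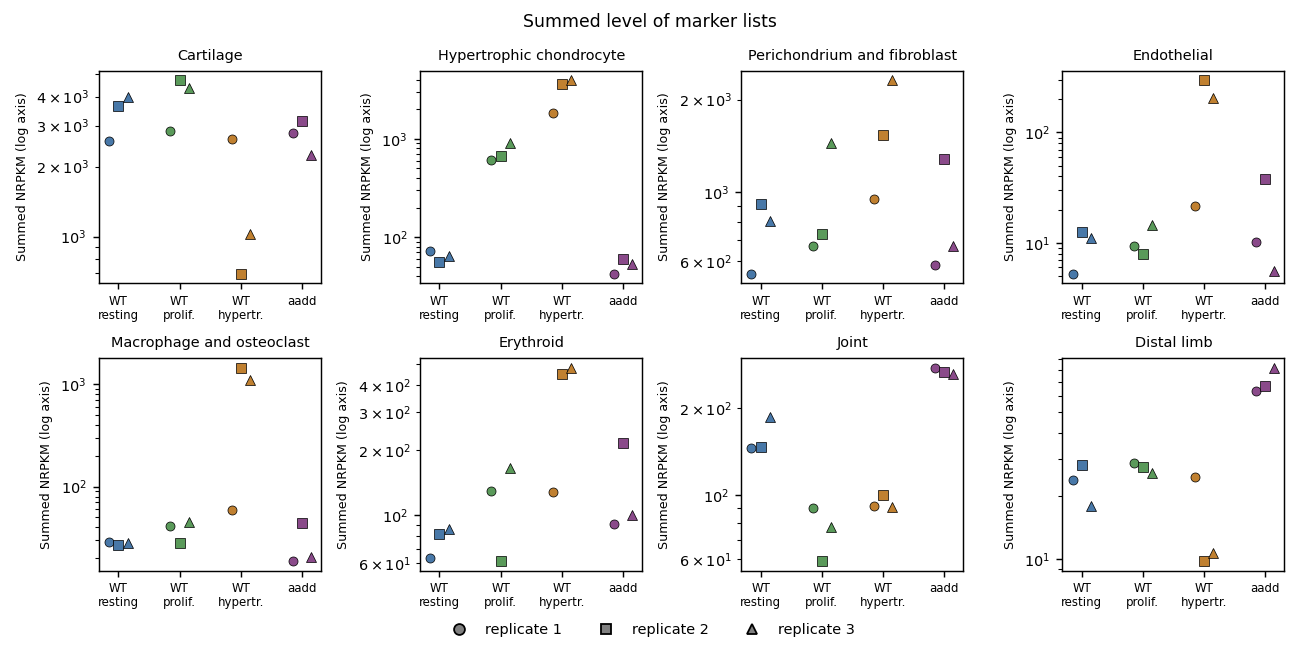
Summed NRPKM of marker gene lists (log axis) in each of the 12 libraries, by group, with symbols for replicates 1, 2 and 3. Macrophage and osteoclast markers reached 1441 and 1087 NRPKM in WT hypertrophic replicates 2 and 3 and 59.0 in replicate 1, and the sums of joint and of distal limb markers were highest in the 3 aadd libraries.

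Per length of transcript, Id3 was the most abundant of the 8 genes in each of the 12 libraries, at 44.6 to 156 NRPKM. Id1 followed at 11.0 to 40.0 NRPKM and Id2 at 14.6 to 26.7 NRPKM. Twist1 ranged from 2.24 to 23.9 NRPKM and Id4 from 1.3 to 14.8 NRPKM. Hand2 (0.186 to 11.5 NRPKM), Twist2 (0 to 8.77 NRPKM) and Hand1 (0 to 5.37 NRPKM) were the least abundant. The order of group means differed between members of 1 family. It ran from WT hypertrophic over aadd and WT proliferative to WT resting for Twist1, and from WT resting over WT proliferative and WT hypertrophic to aadd for Twist2. For Hand2 it was aadd, WT proliferative, WT resting and WT hypertrophic, and for Hand1 WT hypertrophic, WT proliferative, aadd and WT resting. Id1, Id2 and Id3 had their highest mean in WT hypertrophic and Id4 its lowest. Between neighbours in these orders, libraries did not overlap for Twist1 and Twist2 between WT hypertrophic and aadd, for Hand2 between aadd and WT proliferative, and for Id3 between WT hypertrophic and WT proliferative. All other neighbours overlapped.

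**Figure D2:**
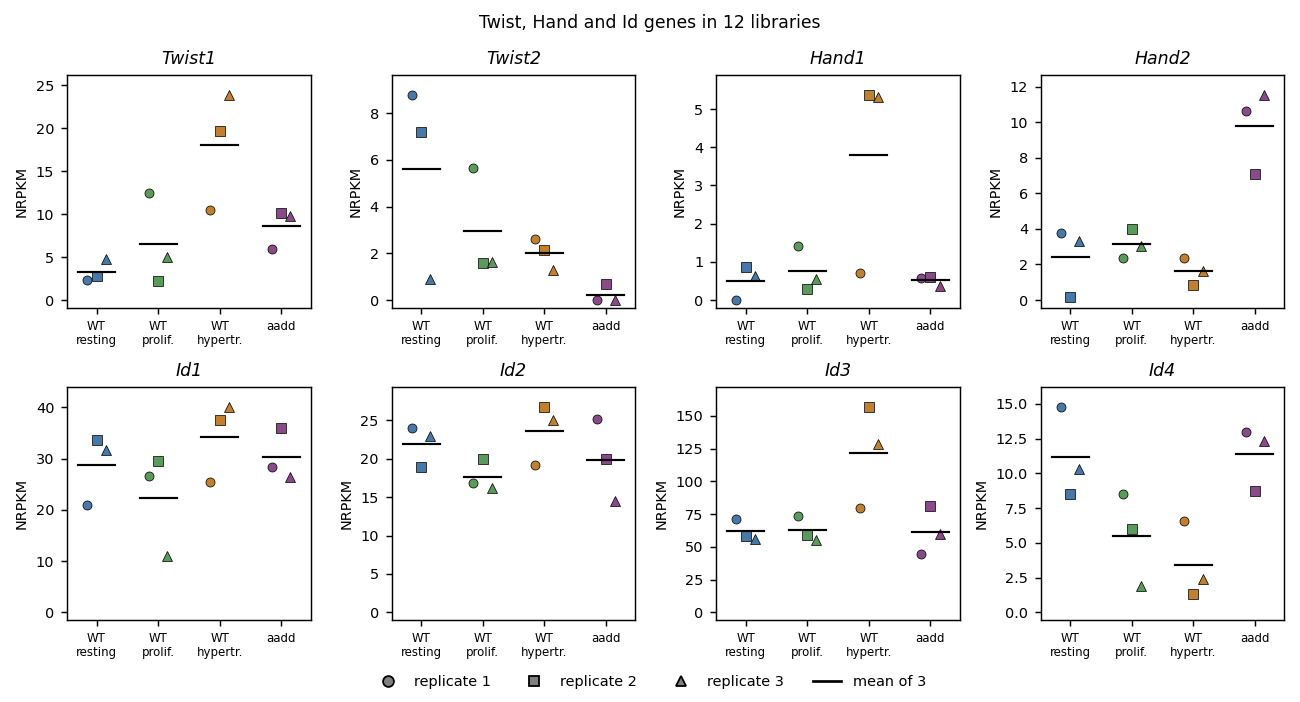
NRPKM of the 8 genes in the 12 libraries (linear axes), with a symbol for each replicate and a line at the mean of each group of 3. Twist1 was highest in WT hypertrophic (10.5 to 23.9 NRPKM), Hand2 in aadd (7.12 to 11.5 NRPKM), and Twist2 lay at 0, 0.693 and 0 NRPKM in aadd.

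Genes were compared with limma on log2(NRPKM + 0.1), and the criteria of the study were applied, an unadjusted P up to 0.05 with a fold change of at least 2 between WT compartments and of at least 1.5 between aadd and WT resting. Between WT proliferative and WT resting, 0 of the 7 genes tested passed, beside 5.53% of all genes (2.56% higher and 2.97% lower), and the lowest unadjusted limma P among them was 0.0626, for Id4. From WT proliferative to WT hypertrophic 1 passed, Twist1, beside 9.67% of all genes (5.32% higher and 4.34% lower). From WT resting to WT hypertrophic 2 passed, Twist1 and Id4, beside 13% of all genes (5.84% higher and 7.2% lower). Between aadd and WT resting 3 passed, Twist1, Twist2 and Hand2, beside 6.56% of all genes (3.78% higher and 2.78% lower). Hand2 reached 5 NRPKM only in the 3 aadd libraries, and Twist2 only in 3 WT libraries. Each was thus admitted to the test through libraries on its high side. With no filter on low values Twist1 and Twist2 passed and Hand2 did not (limma, unadjusted P of 0.0686), beside 5.49% of all genes. The libraries of the groups did not overlap for 0 (24% of all genes), 2 (24.2%), 3 (32%) and 3 (15.4%) of the 7 genes in these 4 comparisons in turn. An unadjusted P under 0.05, without the fold limit, was reached by 0 (17.1% of all genes), 3 (19.3%), 3 (26.4%) and 3 (9.58%) of them, and by 5 in the F test over the 4 groups (31%). Without WT hypertrophic replicate 1, the library that stood apart, 3 genes passed against WT proliferative, 3 against WT resting and 4 in the F test. The comparisons of WT proliferative, WT hypertrophic and aadd with WT resting share the WT resting libraries. With 7 genes, these counts are too small to place the share past the criteria near or above the background, and this was not tested. The set of genes was chosen with earlier results of these data known.

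Adjustment over all 10936 genes (Benjamini-Hochberg) left an adjusted limma P under 0.05 for Twist1 between WT hypertrophic and WT resting (0.0259, with 6.36% of all genes under 0.05) and for no other gene of the 7 in the 4 comparisons. For WT hypertrophic against WT proliferative no gene of the whole table (0%) had an adjusted limma P under 0.05, while 2115 had an unadjusted P under 0.05. For WT proliferative and for aadd against WT resting, 0.622% and 0.119% of all genes had an adjusted P under 0.05. In limma's F test over the 4 groups, with a fold change of at least 5 between any pair of means, Twist1, Twist2 and Hand2 passed, beside 5.6% of all genes, and with a pseudocount of 1 none of them did. Their adjusted P-values in the F test (13.8% of all genes under 0.05) were 0.0535, 0.0394 and 0.115.

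**Figure D3:**
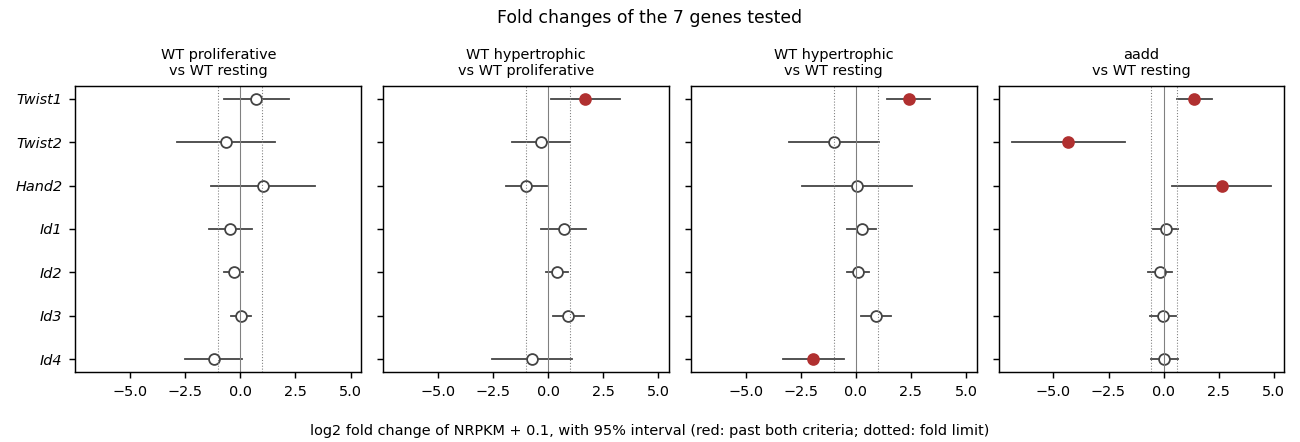
Log2 fold changes of the 7 tested genes on the log2(NRPKM + 0.1) scale in the 4 comparisons, with 95% intervals from limma; red points pass the P and fold criteria and dotted lines mark the fold limit. In aadd against WT resting, Twist1 (1.39) and Hand2 (2.63) lay to the right and Twist2 (-4.33) to the left, and the 4 Id genes lay between -0.17 and 0.09.

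Twist1, which holds cells in a mesenchymal state and restrains Runx2, had 2.28, 2.81 and 4.80 NRPKM in WT resting (3.30 ± 1.33, SD, n = 3), on 11 to 20 reads. It had 10.5, 19.7 and 23.9 NRPKM in WT hypertrophic (18.0 ± 6.84, SD, n = 3), on 40 to 115.9 reads. Each WT hypertrophic library was above each WT resting library. The log2 difference was 2.40 ± 0.40 (SE), a 5.29-fold higher level, with a limma P of 0.000795 and an adjusted P of 0.0259. Without WT hypertrophic replicate 1 it was 2.75 (limma, adjusted P = 0.00522), and over all alternatives the adjusted P ran from 0.00522 to 0.119. In these bulk samples, more RNA per cell and more cells of a type cannot be told apart.

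In WT proliferative, Twist1 was uneven, at 12.4, 2.24 and 5.06 NRPKM (6.57 ± 5.25, SD, n = 3). Replicate 1 there was above WT hypertrophic replicate 1, and replicate 2 was below the lowest WT resting library, so that both neighbouring compartments overlapped it. Twist1 passed the criteria between WT hypertrophic and WT proliferative, with a log2 difference of 1.69 ± 0.64 (SE), a limma P of 0.0386 and an adjusted P of 0.242. The call was lost without WT proliferative replicate 2 or 3 or WT hypertrophic replicate 2 or 3 (limma P of 0.0897 to 0.108), with no filter on low values (P of 0.0644) and with the replicate block (P of 0.0728). The WT proliferative and WT resting means differed by 0.72 on the log2 scale (95% interval -0.75 to 2.19, limma, adjusted P = 0.58), and Twist1 passed without WT proliferative replicate 2, at 1.31 (limma, unadjusted P of 0.0384).

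In aadd, Twist1 had 5.95, 10.2 and 9.80 NRPKM (8.65 ± 2.34, SD, n = 3). The 3 libraries were above those of WT resting and below those of WT hypertrophic. Against WT resting Twist1 was 2.63-fold higher, a log2 difference of 1.39 ± 0.33 (SE), with a limma P of 0.00412 and an adjusted P of 0.254. No alternative took it below the criteria, and the adjusted P ran from 0.161 to 0.677. The 10 perichondrium and fibroblast markers summed to 580, 1285 and 670 NRPKM in aadd and to 545, 916 and 808 in WT resting. Without aadd replicate 2, which has the highest of these sums, the log2 difference was 1.26 (limma, adjusted P = 0.419). In WT hypertrophic, where Twist1 was highest, this sum was 951, 1533 and 2310 NRPKM, and the macrophage and endothelial sums were high in the same replicates 2 and 3 as Twist1. The part of these cells in the level of Twist1 was not tested.

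By root mean square difference of centred log2 values over the 12 libraries, as a share of the SD of Twist1, the nearest profiles were those of Tmsb4x (0.357), Pls3 (0.431) and Zswim6 (0.435). Tmsb4x encodes an actin-sequestering peptide and Pls3 an actin-bundling protein. Tmsb4x had 34.7, 45.0 and 57.8 NRPKM in WT resting and 126, 276 and 240 in WT hypertrophic.

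Twist2, the second Twist gene, also a repressor in mesenchyme and dermis, had 8.77, 7.20 and 0.894 NRPKM in WT resting (5.62 ± 4.17, SD, n = 3), which corresponds to 34, 22.7 and 3 reads. In aadd it had 0, 0.693 and 0 NRPKM, with 2 reads in replicate 2 and none in the others. WT resting replicate 3 was close to aadd and the other WT resting libraries were far above it, without overlap. The fit gave a log2 difference of -4.33 ± 1.09 (SE), a limma P of 0.00539 and an adjusted P of 0.275. Since aadd is at the floor, the size of this difference depends on the pseudocount, and was -2.16 with a pseudocount of 1 (limma, unadjusted P of 0.00674). The 60 reads of WT resting against 2 of aadd gave a ratio of 29.7 after correction for depth (exact 95% interval 7.88 to 251). This interval covers counting error only, while the WT resting libraries alone ran from 3 to 34 reads.

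Across the WT compartments Twist2 had 5.65, 1.59 and 1.61 NRPKM in WT proliferative (2.95 ± 2.34, SD, n = 3) and 2.61, 2.12 and 1.28 in WT hypertrophic (2.0 ± 0.673, SD, n = 3). The groups overlapped one another, and each WT library was above each aadd library. WT hypertrophic against WT resting gave a log2 difference of -0.99 (95% interval -3.03 to 1.06, limma, adjusted P = 0.495). WT resting replicate 3 decided this value, since without it the difference was -1.99 (limma, adjusted P = 0.0723). WT proliferative against WT resting likewise moved from -0.65 (limma, unadjusted P of 0.506) to -1.65 without that library (limma, unadjusted P of 0.0315, adjusted P = 0.422), where Twist2 passed the criteria.

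The nearest profiles to Twist2 were those of Lef1 (0.577 of the SD of Twist2), Shox2 (0.583) and Runx3 (0.677), which encode a Wnt effector, a homeobox factor of limb elements and a Runx factor of chondrocyte maturation. Lef1 had 26.6, 37.0 and 15 NRPKM in WT resting and 2.12, 1.79 and 2.31 in aadd. Shox2 had 63.4, 61.0 and 33.7 NRPKM in WT resting and 3.33, 4.56 and 5.24 in aadd. These genes were chosen for their likeness to Twist2 over the same libraries, so the shared pattern restates the choice and was not tested.

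The 2 Twist genes summed to 5.95 to 10.9 NRPKM in aadd and to 5.69 to 11.1 NRPKM in WT resting, which overlapped. Twist1 made up 20.7% to 84.3% of this sum in WT resting and 93.6% to 100% in aadd. In WT proliferative its share was 58.5% to 75.8%, and in WT hypertrophic 80.1% to 94.9%, with a sum of 13.1 to 25.2 NRPKM. The sum of a pair was chosen for description and was not tested.

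**Figure D4:**
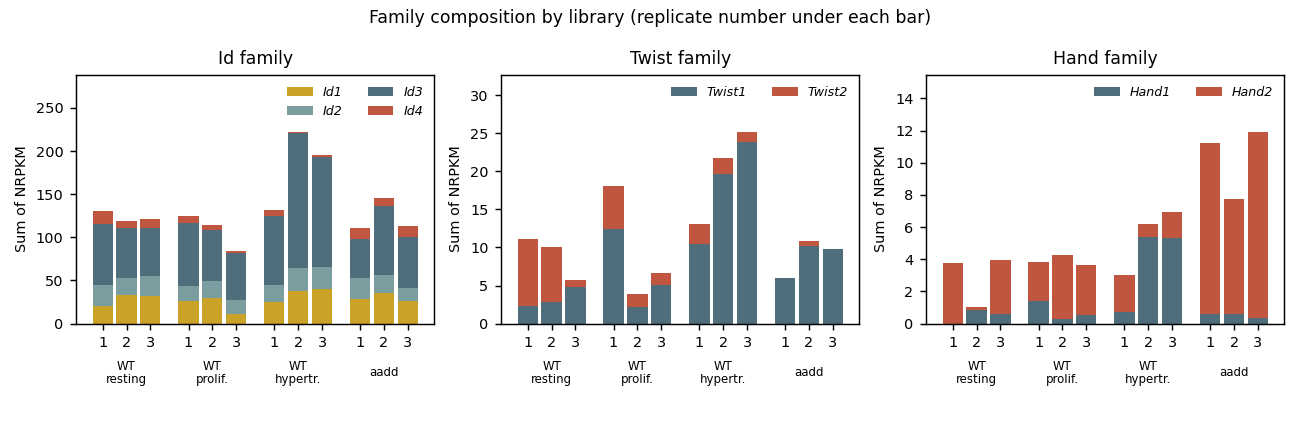
Stacked NRPKM of the members of each family in each library (linear axes from 0), with replicate numbers under the bars. The Twist sum overlapped between WT resting (5.69 to 11.1 NRPKM) and aadd (5.95 to 10.9 NRPKM), and Twist1 made up 93.6% to 100% of it in aadd, and Hand2 made up 92.1% to 96.9% of the Hand sum in aadd.

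Genes of mesenchyme and of Runx2-driven bone formation, which Twist1 is known to promote and to restrain, were counted in the same fits. Of the 10 mesenchymal genes, 3 rose and 0 fell between WT resting and WT hypertrophic, with a median log2 difference of 0.72 beside -0.02 over all genes. These were Cdh2 (N-cadherin, 3.91, limma, adjusted P = 0.000843), the repressor Zeb2 (2.76, limma, adjusted P = 0.038) and Fn1 (fibronectin, 1.2, limma, adjusted P = 0.0517). In WT hypertrophic, Cdh2 and Zeb2 were highest in replicates 2 and 3, those with the high macrophage and endothelial sums, and Fn1 was even. The part of those cells was not tested. From WT proliferative to WT hypertrophic Cdh2, Zeb2 and Cdh11 rose and 0 fell, with a median of 0.67 beside 0.04, and between WT proliferative and WT resting only Cdh2 rose (1.41, limma, adjusted P = 0.26), with a median of 0.08 beside -0.06. In aadd Cdh2 (1.25, limma, adjusted P = 0.096) and Zeb1 (0.65, limma, adjusted P = 0.353) were above WT resting, as was Twist1, and 0 of the 10 fell, with a median of 0.13 beside 0.01. Of all genes, 13%, 9.67%, 5.53% and 6.56% passed in these comparisons, in the order given. In WT proliferative against WT resting the count of 1 was kept without WT proliferative replicate 2, while 0 genes passed without any other single library or with no filter. Against WT proliferative the count of 3 became 1 without WT hypertrophic replicate 2 or 3 and 5 without replicate 1, and against WT resting it became 5 without WT resting replicate 1.

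Of the 9 tested genes of the Runx2 osteogenic list, 6 rose and 0 fell between WT resting and WT hypertrophic, where Twist1 also rose and 13% of all genes passed, with a median log2 difference of 4.81 beside -0.02 over all genes. The largest were Ibsp (7.34), Alpl (7.21), both of mineralizing matrix, and Mmp13 (5.36, limma, adjusted P = 0.167), a collagenase. Mmp13 had 3.05, 735 and 661 NRPKM in WT hypertrophic and 2.82, 2.45 and 2.88 in WT resting. Its high replicates 2 and 3 were those with the high macrophage and endothelial sums, and the part of those cells was not tested. Ibsp, Alpl and Mmp13, and Spp1 of the same list, are also among the hypertrophic chondrocyte markers, so their rise restates what marks the compartment. Runx2 itself rose by 1.97 (limma, adjusted P = 0.0128). Between WT proliferative and WT resting 5 rose and 0 fell (median 1.43 beside -0.06), and between WT hypertrophic and WT proliferative 4 rose and 0 fell (median 1.68 beside 0.04). In aadd 1 of the 9 passed, Runx3, which fell by 2.22 (limma, adjusted P = 0.13), and the median was -0.22 beside 0.01. Runx2 had 18.1, 31.3 and 23.5 NRPKM in aadd and 41.1, 27.7 and 23.2 in WT resting, and these overlapped. The count of 4 in WT hypertrophic against WT proliferative became 2 without WT proliferative replicate 1 or 2 or WT hypertrophic replicate 2 or 3, and was 6 without WT hypertrophic replicate 1. In aadd 2 passed without WT resting replicate 1.

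Hand2, a factor of the posterior limb bud and of heart and jaw, had 3.79, 0.186 and 3.33 NRPKM in WT resting (2.43 ± 1.96, SD, n = 3), on 45 reads in all, of which 1 was in replicate 2. In aadd it had 10.7, 7.12 and 11.5 NRPKM (9.77 ± 2.34, SD, n = 3), on 66.3, 35 and 73.8 reads. Each aadd library was above each of the 9 WT libraries. Against WT resting, Hand2 was 6.19-fold higher in aadd, a log2 difference of 2.63 ± 0.95 (SE), with a limma P of 0.0286 and an adjusted P of 0.447. WT resting replicate 2 set much of this size, and without it the difference was 1.41 (limma, adjusted P = 0.304). The call was lost with no filter on low values (limma, unadjusted P of 0.0686) and without aadd replicate 1 (P of 0.0733) or 3 (P of 0.0775), at differences of 2.5 to 2.63. A term for sex, added after seeing the data because WT resting replicate 2 is the male library of its group, gave 3.31 (limma, adjusted P = 0.216).

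Hand2 had 2.39, 3.98 and 3.06 NRPKM in WT proliferative (3.14 ± 0.795, SD, n = 3) and 2.34, 0.851 and 1.65 in WT hypertrophic (1.61 ± 0.746, SD, n = 3). All 3 WT hypertrophic libraries were below all 3 WT proliferative ones. The log2 difference was -0.99 ± 0.39 (SE), with a limma P of 0.0418 and an adjusted P of 0.248, and its fold of 1.99 missed the limit of 2. With rescaling by the median of ratios (-1.02), with quantile normalization (-1.04) or without WT hypertrophic replicate 1 (-1.3, limma, adjusted P = 0.0623) it passed. From WT resting to WT hypertrophic the difference was 0.03 (95% interval -2.47 to 2.53), and it turned to -1.19 without WT resting replicate 2 (limma, adjusted P = 0.256). WT proliferative against WT resting gave 1.02 (95% interval -1.33 to 3.37, limma, adjusted P = 0.625), and -0.20 at the lowest with a library left out.

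Summed markers of other limb regions were also higher in aadd than in WT resting. The 10 distal limb markers summed to 63.2 to 81.7 NRPKM in aadd and to 17.9 to 28.2 in WT resting. The 10 joint markers summed to 264 to 276 and to 145 to 187. In each list no marker was at 0 in every aadd library or in every WT resting library. By gene, 3 of the 4 distal limb markers tested passed, all higher in aadd, beside 6.56% of all genes. Of the 9 joint markers tested 4 passed, all higher, and 7 had a difference above 0. The lists hold Sall1 (distal limb) and Gdf5, Osr1 and Dcx (joint). The study reports these genes as higher in aadd from the same libraries, so the sums and counts partly restate that report. The part of other limb regions in the level of Hand2 was not tested. The nearest profiles to Hand2 were those of Hs3st3b1 (0.603 of the SD of Hand2), Igf1 (0.606) and Hs3st3a1 (0.615), that is a growth factor and a pair of heparan sulfate sulfotransferases. Igf1 had 21.0, 54.6 and 37.3 NRPKM in aadd and 6.52, 1.90 and 13.1 in WT resting, a pattern for which it was chosen and which was not tested.

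Of the 7 tested genes that act with Hand2 and Gli3 in the limb bud, 0 rose and 2 fell in aadd, with a median log2 difference of -0.16 beside 0.01 over all genes. These were the Hedgehog targets Gli1, at 13.9, 13.9 and 14 NRPKM in aadd and 23.6, 38.8 and 29.5 in WT resting, and Ptch1, at 49.6, 42.3 and 54.0 and at 93.6, 87.3 and 73.0. Neither overlapped, and their log2 differences were -1.10 (limma, adjusted P = 0.182) and -0.80 (limma, adjusted P = 0.242). Shh, the Hedgehog ligand of this list, was listed at 0 in all WT resting, WT hypertrophic and aadd libraries. Ihh, another Hedgehog ligand, is not in this list but among the hypertrophic chondrocyte markers. The study reports it as higher in WT proliferative than in WT resting. The part of either ligand in the levels of Gli1 and Ptch1 was not tested. Gli3 had 69.7, 62.7 and 76.5 NRPKM in aadd and 55.8, 62.3 and 54.6 in WT resting. From WT resting to WT hypertrophic 1 rose, Tbx2 (3.90, limma, adjusted P = 0.011), and 3 fell, the BMP antagonist Grem1 (-3.54), Gli1 (-1.2) and Gli3 (-1.14), with a median of -1.12 beside -0.02. Grem1 had 1.03, 8.38 and 6.92 NRPKM in WT resting and 0, 1.32 and 0.205 in WT hypertrophic. These overlapped, and with values at the floor the size of its difference depends on the pseudocount. Tbx2 was the 1 gene of the list that passed between WT proliferative and WT resting (3.41, limma, adjusted P = 0.0754; 2 genes with the replicate block), with a median of -0.39 beside -0.06. Grem1 was the 1 that passed between WT hypertrophic and WT proliferative (-2.40, limma, adjusted P = 0.256, libraries overlapping), with a median of -0.49 beside 0.04. With single libraries left out, this last count was 0 to 2 (0 without any WT proliferative library or WT hypertrophic replicate 3, 2 without WT hypertrophic replicate 1). The count for WT proliferative against WT resting was 2 without WT resting replicate 1 or 2 or WT proliferative replicate 1 or 3, and that of 4 for WT hypertrophic against WT resting was 2 without WT hypertrophic replicate 3.

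Hand1, the paralog of Hand2 known from heart and placenta, stayed under the filter. It had 0.708, 5.37 and 5.31 NRPKM in WT hypertrophic, on 3.1, 33 and 30 reads, and the same replicates 2 and 3 held the high macrophage and endothelial sums. Elsewhere it had 0, 0.878 and 0.618 NRPKM in WT resting, 1.41, 0.275 and 0.558 in WT proliferative, and 0.568, 0.613 and 0.368 in aadd, never on more than 7 reads. WT hypertrophic replicate 1 was within the range of the other groups, and the part of the other cells was not tested. Without the filter on low values, WT hypertrophic against WT resting gave a log2 difference of 2.80 ± 1.26 (SE), with a limma P of 0.0779 and an adjusted P of 0.334, and against WT proliferative 2.0 (limma, adjusted P = 0.421). Hand1 passed in none of the 4 comparisons of that fit, beside 6.48%, 8.36%, 11% and 5.49% of all 23070 genes. Pooled reads, 66 against 7, gave a ratio of 8.72 over WT resting after correction for depth (exact 95% interval 4.01 to 22.5, counting error only). Between aadd and WT resting the difference was 0.56 (limma, unadjusted P of 0.585), which is not detectable at this depth. Hand2 made up 92.1% to 96.9% of the Hand sum in aadd, 17.5% to 100% in WT resting, 62.9% to 93.5% in WT proliferative and 13.7% to 76.8% in WT hypertrophic, and aadd overlapped WT resting and WT proliferative.

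None of the 4 Id genes passed the criteria between aadd and WT resting. Id1 had 28.3, 35.9 and 26.5 NRPKM in aadd and 21.0, 33.6 and 31.8 in WT resting, with a log2 difference of 0.09 (95% interval -0.47 to 0.65). Id2 had 25.1, 19.9 and 14.6 NRPKM and 23.9, 18.9 and 22.9, with a difference of -0.17 (-0.73 to 0.39). Both ranges overlapped. Id3 had 44.6, 80.9 and 59.4 NRPKM and 71.0, 58.4 and 56.2, with a difference of -0.04 (-0.63 to 0.55). Id4 had 13, 8.75 and 12.4 NRPKM and 14.8, 8.51 and 10.3, with a difference of 0.04 (-0.58 to 0.66). For all 4 genes the libraries overlapped, the adjusted limma P was 0.858 or higher, and the intervals exclude a 2-fold change either way. Each interval holds the 1.5-fold limit of this comparison on a single side, upward for Id1 and Id4 and downward for Id2 and Id3.

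Id3, a broadly expressed BMP target, had 80.0, 156 and 128 NRPKM in WT hypertrophic (122 ± 38.7, SD, n = 3), on 178 to 482.9 reads. It had 71.0, 58.4 and 56.2 NRPKM in WT resting (61.9 ± 8.02, SD, n = 3) and 73.3, 59.1 and 55.0 in WT proliferative (62.5 ± 9.64, SD, n = 3). All WT hypertrophic libraries were above all of these, replicate 1 by the least. The log2 difference was 0.93 ± 0.28 (SE) from WT resting (limma, adjusted P = 0.102) and 0.92 ± 0.29 (SE) from WT proliferative (limma, adjusted P = 0.196), below the 2-fold limit in both. Without WT hypertrophic replicate 1 both passed, at 1.2 (limma, adjusted P = 0.0113) and 1.19 (limma, adjusted P = 0.0234). WT proliferative and WT resting differed by 0.01 (95% interval -0.44 to 0.46). As for Twist1, the replicates with the highest Id3 were those with the high macrophage and endothelial sums, and the part of those cells was not tested. The nearest profiles to Id3 were those of Coro1b (0.37 of the SD of Id3), Cyb5r3 (0.379) and Peak1 (0.391).

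Id4, the Id gene best known from brain and from osteoblast differentiation, went the other way. It had 14.8, 8.51 and 10.3 NRPKM in WT resting (11.2 ± 3.21, SD, n = 3), 8.54, 5.98 and 1.91 in WT proliferative (5.48 ± 3.34, SD, n = 3) and 6.58, 1.3 and 2.43 in WT hypertrophic (3.44 ± 2.78, SD, n = 3). WT hypertrophic did not overlap WT resting, while WT proliferative overlapped both. Id4 was 3.84-fold lower in WT hypertrophic than in WT resting, a log2 difference of -1.94 ± 0.57 (SE), with a limma P of 0.0135 and an adjusted P of 0.0964. Without WT hypertrophic replicate 1 it was -2.55 (limma, adjusted P = 0.00727), and without WT resting replicate 1 it was -1.72 and missed the threshold (limma, unadjusted P of 0.0508). The cartilage markers summed to 2618, 694 and 1023 NRPKM in WT hypertrophic, in the same order of replicates as Id4. Replicates 2 and 3, where Id4 was low, held the high macrophage and endothelial sums. The part of the cell mixture in the level of Id4 was not tested. WT proliferative against WT resting gave -1.22 ± 0.54 (SE) with a limma P of 0.0626, and passed with the replicate number as a block (limma, adjusted P = 0.226), which pairs the libraries in this comparison. WT hypertrophic against WT proliferative gave -0.72 (95% interval -2.53 to 1.09, limma, adjusted P = 0.603). The nearest profiles to Id4 were those of Tmod2 (0.4 of the SD of Id4), Syne4 (0.445) and Wdr35 (0.453).

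Id1, a direct target of BMP-SMAD signaling, had 26.5, 29.5 and 11.0 NRPKM in WT proliferative (22.3 ± 9.90, SD, n = 3) and 25.4, 37.5 and 40.0 in WT hypertrophic (34.3 ± 7.84, SD, n = 3). Id2, an inhibitor with roles in mammary gland and lymphoid cells, had 16.8, 20.0 and 16.2 NRPKM in WT proliferative (17.7 ± 2.01, SD, n = 3) and 19.2, 26.7 and 25.1 in WT hypertrophic (23.7 ± 3.96, SD, n = 3). Neither gene had groups without overlap in any of the 4 comparisons. The log2 difference between WT hypertrophic and WT resting was 0.26 (95% interval -0.41 to 0.92) for Id1 and 0.10 (-0.39 to 0.59) for Id2. The widest of their other differences, between WT hypertrophic and WT proliferative, were 0.71 (-0.31 to 1.73) and 0.41 (-0.08 to 0.90).

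The 4 Id genes summed to 119 to 131 NRPKM in WT resting, 84.2 to 125 in WT proliferative, 131 to 222 in WT hypertrophic and 111 to 146 in aadd. The share of Id3 in this sum was 46.3% to 54.3% in WT resting, 51.6% to 65.3% in WT proliferative, 61.0% to 70.5% in WT hypertrophic and 40.2% to 55.6% in aadd. Id4 made up 7.13% to 11.3%, 2.27% to 6.82%, 0.584% to 5.02% and 6.01% to 11.7% in the same order. WT hypertrophic thus had the highest share of Id3 and the lowest of Id4 relative to WT resting, without overlap, and the shares in aadd overlapped those in WT resting.

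The E proteins, the partners of all 8 gene products, passed the criteria in 0 of 3 cases in each of the 4 comparisons. Their summed level was 90.3 to 105 NRPKM in WT resting, 65.4 to 99.4 in WT proliferative, 90.8 to 106 in WT hypertrophic and 105 to 123.5 in aadd. Tcf12 had 34.3, 38.9 and 41.4 NRPKM in aadd and 30.1, 24.0 and 28.8 in WT resting, without overlap but with a log2 difference of 0.47 (limma, adjusted P = 0.447), under the 1.5-fold limit. Tcf4 in WT proliferative, at 32.3, 22.9 and 35.5 NRPKM, was below each WT resting and WT hypertrophic library, with differences of -0.57 and 0.59 that missed the 2-fold limit (limma P of 0.0462 and 0.0334). The median log2 difference of the 3 genes was -0.33, 0.23, 0.01 and 0.32 for WT proliferative against WT resting, WT hypertrophic against WT proliferative, WT hypertrophic against WT resting and aadd against WT resting, beside -0.06, 0.04, -0.02 and 0.01 over all genes.

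Other genes that BMP signaling induces moved in both directions. Of the 8 tested, 2 rose and 3 fell between WT resting and WT hypertrophic, where Id3 was high and Id4 low, with a median log2 difference of 0.17 beside -0.02 over all genes. The inhibitory Smad6 had 8.89, 9.47 and 13.8 NRPKM in WT hypertrophic and 4.44, 3.37 and 5.23 in WT resting (1.28, limma, adjusted P = 0.0418), and the pseudoreceptor Bambi rose by 1.5 (limma, adjusted P = 0.0758). The BMP antagonists Grem1 (-3.54) and Nog (-1.0) and the bHLH gene Atoh8 (-1.31) fell, with adjusted limma P-values of 0.119, 0.172 and 0.0658. The libraries of Grem1 and Nog overlapped between these groups. Grem1 was near the floor in WT hypertrophic and overlapped WT proliferative as well. From WT proliferative to WT hypertrophic Smad6 rose (2.13) and Grem1 (-2.40) and Nog (-1.02) fell, with a median of -0.28 beside 0.04. Msx2 was the 1 gene of the list that passed between WT proliferative and WT resting (1.39, limma, adjusted P = 0.0274), with a median of -0.27 beside -0.06. In aadd 0 rose and 1 fell, Smad9 (-0.65, limma, adjusted P = 0.426), with a median of -0.28 beside 0.01. That call was lost without aadd replicate 1, and 2 genes passed without aadd replicate 2. The count of 5 from WT resting to WT hypertrophic was 3 without WT resting replicate 3 or WT hypertrophic replicate 3, and that of 3 from WT proliferative was 1 without WT proliferative replicate 1 or 3 or WT hypertrophic replicate 3. The count of 1 in WT proliferative against WT resting was 3 without WT resting replicate 1 or WT proliferative replicate 1.

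**Figure D5:**
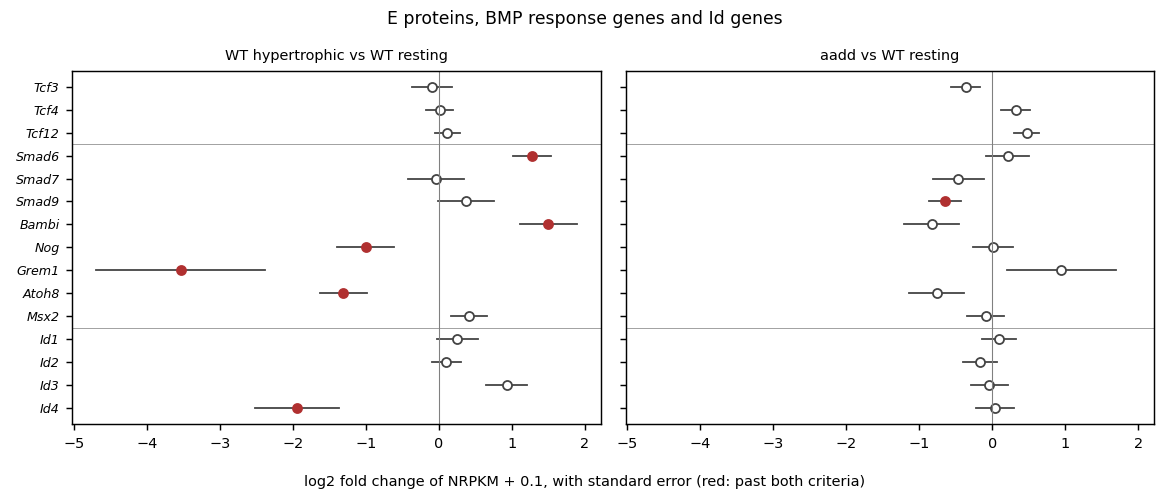
Log2 fold changes with standard errors of the E proteins, the tested BMP response genes and the Id genes in WT hypertrophic and in aadd, each against WT resting, with red points past the P and fold criteria. In WT hypertrophic Smad6 (1.28) and Bambi (1.5) lay to the right and Grem1 (-3.54, libraries overlapping) and Id4 (-1.94) to the left, and in aadd the Id genes lay within 0.17 of 0.

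Among the 8 tested BMP receptor and SMAD genes, Bmpr1b was the single gene to pass in any comparison. Smad1 missed the 2-fold limit against WT resting, without overlap, at a log2 difference of 0.97 in WT proliferative and 0.94 in WT hypertrophic (limma, adjusted P = 0.114 and 0.0568). Bmpr1b, a type I receptor, had 28.5, 15.9 and 38.8 NRPKM in aadd and 7.77, 5.28 and 10.2 in WT resting. It had 9.03, 4.46 and 4.67 in WT proliferative and 4.18, 1.34 and 1.04 in WT hypertrophic. It was thus high in all aadd libraries, where the Id genes did not differ from WT resting beyond their spread. Its log2 difference was 1.79 between aadd and WT resting (limma, adjusted P = 0.212), -1.98 between WT hypertrophic and WT resting (limma, adjusted P = 0.0807) and -1.60 between WT hypertrophic and WT proliferative (limma, adjusted P = 0.215). The medians of the list were -0.20, 0.08, -0.07 and 0.09 in the order given for the E proteins. The call of Bmpr1b in WT hypertrophic against WT proliferative was lost without WT proliferative replicate 1 or WT hypertrophic replicate 2 or 3. In WT proliferative against WT resting 1 gene of the list passed without WT resting replicate 2 or WT proliferative replicate 1, and in WT hypertrophic against WT resting 2 passed without WT resting replicate 2.

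Of 20 further tissue-restricted bHLH genes, 2 passed the filter, the tendon factor Scx and Atoh8. Both fell between WT resting and WT hypertrophic (-1.56 and -1.31), Scx also fell between WT proliferative and WT hypertrophic (-1.58, limma, adjusted P = 0.196), and 0 of the 2 passed in WT proliferative or in aadd against WT resting. Of 10 bHLH-Orange repressor genes, the Hes, Hey and Bhlhe group, 4 were tested and 1 passed, the Notch target Heyl, which had 1.21, 34.8 and 39.6 NRPKM in WT hypertrophic and 0.448, 0 and 0.345 in WT resting. Heyl was thus high in the replicates with the high endothelial sums, at a log2 difference of 5.4 (limma, adjusted P = 0.0779). It reached 5 NRPKM only in these replicates and in WT proliferative replicate 3 (5.61), so its high libraries admitted it to the test. With WT resting near 0, the size of its difference depends on the pseudocount. In the other 3 comparisons 0 of the 4 passed, and 1 did between WT proliferative and WT resting with the replicate block. With single libraries left out, these bHLH counts moved. Of the tissue-restricted genes 1 passed in WT hypertrophic against WT resting without WT resting replicate 1 or 3 or WT hypertrophic replicate 3, 0 in WT hypertrophic against WT proliferative without WT proliferative replicate 2 or 3, 1 in WT proliferative without its replicate 1 and 2 in aadd without its replicate 2. Of the bHLH-Orange genes 2 passed in WT hypertrophic against WT resting without WT resting replicate 3 and 3 without WT hypertrophic replicate 1. Against WT proliferative 1 passed without WT proliferative replicate 2 and 2 without its replicate 1 or 3 or WT hypertrophic replicate 1, and 1 passed in WT proliferative against WT resting without WT proliferative replicate 2.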

How the data were processed

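RNA-Seq libraries were made from total RNA of captured cells, amplified with NuGEN reagents and tagmented with Nextera. Per the labels and the study's methods, the authors aligned to mm10 with TopHat, removed multiply aligned and duplicate reads and analysed the data in GeneSpring. The deposited values are RPKM, normalized further between libraries by the authors (NRPKM), on a linear scale. How libraries were scaled to each other is not given in the sources used here.

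From these values, log2(NRPKM + 0.1) was analysed in limma 3.58.1 under R 4.3.3 for genes with 5 NRPKM or more in 3 or more of the 12 libraries. Each pair of groups was fitted on its 6 libraries with no covariate, and all 4 groups by limma's F test. P-values were adjusted by Benjamini-Hochberg over all genes tested. Python 3.11.15, numpy 2.4.6, pandas 2.3.3, scipy 1.17.1 and matplotlib 3.10.9 served for tables and plots. The procedure was tested on simulated data. The reads behind a value are its NRPKM times the exon length over the value of 1 read, and a level under 3 reads was taken as the floor.

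Named are the 8 genes, for each list the largest changes among those past the criteria, and the 3 nearest profiles of each gene with non-overlapping groups. The 8 genes and the lists were chosen with earlier results of these data known. Groups follow the sample labels. Libraries with the same replicate number deviated together in each pair between WT proliferative and WT resting (r = 0.281, 0.179 and 0.198), so the numbers were taken to pair the libraries there, and not in every pair of the other comparisons. The reported P-values of that comparison still come from the unpaired fit, with the replicate block as an alternative. Alternative settings were all 12 libraries fitted together, a replicate block, pseudocount 1, all genes without a filter, rescaling by median of ratios or by quantiles, and leaving out each library. A term for sex was chosen after seeing the data.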

Additional observations from a re-analysis of the deposited data

How the results depend on the processing

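Of 364 values, a gene of the 7 in a comparison under an alternative, 319 kept their direction and their side of the criteria, 10 lost the call, 14 gained one and 21 changed sign. No value that passed the criteria in the reported fit changed sign. The sign changes were in 9 differences. With a library left out, Hand2 ran from -0.20 to 1.68 between WT proliferative and WT resting and from -1.19 to 0.69 between WT hypertrophic and WT resting (-0.19 with a pseudocount of 1), where it passed at the lower end. Id3 ran from -0.11 to 0.11 between WT proliferative and WT resting (-0.063 with quantile normalization), Twist2 from -0.63 to 0.25 between WT hypertrophic and WT proliferative, and Id2 from -0.00085 to 0.25 between WT hypertrophic and WT resting. Between aadd and WT resting, Id1 ran from -0.12 to 0.21 (-0.019 with the sex term), Id2 from -0.36 to 0.036, Id3 from -0.26 to 0.17 and Id4 from -0.14 to 0.25. Between WT proliferative and WT resting, 0 genes passed and 1, Id4, passed with a pseudocount of 1 or with the replicate block, with 0 to 1 as single libraries were left out. Between WT hypertrophic and WT proliferative, 1 gene passed, 0 with no filter on low values or with the replicate block, 2 with the median of ratios or quantile normalization, and 0 to 3 with a library left out. That comparison is the least stable for these genes. Between WT hypertrophic and WT resting 2 genes passed (2 to 3 with a library left out), and between aadd and WT resting 3 (2 to 3). In the F test 3 genes passed, 0 with a pseudocount of 1, which draws the means of low genes together and below 5-fold, and 2 to 4 with a library left out. The replicate block changed no other call of the 7 genes in these comparisons. With a library left out, the spread of its group rests on the libraries that remain.

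List counts moved with some settings, and with single libraries left out as given beside them in the results. Between WT proliferative and WT resting, the Hand2-Gli3 list went from 1 to 2 with a pseudocount of 1, all libraries in one fit or the replicate block, the mesenchymal list from 1 to 0 with no filter, and the BMP receptor list from 0 to 1 with either rescaling. The bHLH-Orange list went from 0 to 1 with the block there, from 0 to between 1 and 3 in WT hypertrophic against WT proliferative (pseudocount of 1, block, all libraries in one fit, no filter), from 1 to 2 with the block and to 4 with no filter against WT resting, and from 0 to 2 in aadd with no filter. The tissue-restricted bHLH list went from 1 to 3 between WT hypertrophic and WT proliferative with no filter, and from 0 to 1 in aadd with no filter or the block. The Hand2-Gli3 list went from 1 to 0 between WT hypertrophic and WT proliferative with no filter or quantile normalization, and the BMP response list in aadd from 1 to 0 with a pseudocount of 1 and to 2 with either rescaling or the block. Hand1 and Twist2 in aadd rest on 0 to 3 reads a library, so depth limits their values.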
